A study of Mus musculus with 36 samples.

Results

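The cytochrome P450 genes of families 1 to 3 were described in mouse liver after injection of lipopolysaccharide (LPS, or endotoxin), an outer-membrane molecule of Gram-negative bacteria to which the innate immune system reacts throughout the body. Members were the protein-coding genes whose symbol is Cyp, a family number from 1 to 3, a subfamily letter and a gene number. There were 58 of them among 34829 genes in the deposited table, and 34 had a mean signal of at least 5 over the 36 libraries and were tested. Livers came from C57BL6/J mice, a standard inbred strain, kept at 22 °C, labelled room temperature, or at 30 °C, labelled thermoneutral, the range in which a mouse needs little extra heat production. They were taken 0, 4, 12 and 24 h after injection, with 4, 4, 5 and 5 samples at 22 °C and 5, 4, 4 and 5 at 30 °C, in that order of time. No group left without LPS at the later times is among these samples, so a change since 0 h cannot be told apart from a change with time of day, feeding or the injection itself. The sources used here do not give the LPS dose, the sex of the animals or whether each sample is a separate mouse. The p-values therefore measure the spread between samples.

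Enzymes of these families sit in the endoplasmic reticulum, carry heme and take electrons from cytochrome P450 reductase (Por) and cytochrome b5 to oxidise drugs, toxins, steroids, fatty acids and bile acids. Most are made by hepatocytes, many of them near the central vein, and their genes lie in tandem clusters of close copies. Nuclear receptors such as CAR (Nr1i3), PXR (Nr1i2) and HNF4α, together with the aryl hydrocarbon receptor, drive their transcription, and inflammation is known to lower many of their mRNAs.

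Values are the deposited signal of each gene, named scaled reads per base by the authors and compared here within a gene. Levels of different genes were compared on the second deposited value, which is per transcript length and is called the per-length level below. The libraries were read from the 3′ end of transcripts, so division by length can shift the order of genes. The order on the signal is therefore given too, but it is no check free of length. The signal is the per-length level times a factor that differs between genes. That factor was 0.699 for Cyp2c40 and 1.97 for its close copy Cyp2c69. Depth was low, at 557000 to 2744000 estimated reads per library, and 3 reads were worth 1.33 to 5.05 units of signal. A 30 °C library of 0 h, replicate 3, was the shallowest and had a summed member signal of 21283, where the other libraries of 0 h had 27573 to 32861. A 30 °C library of 4 h, replicate 4, had 18633 genes above 0 and the other libraries had 12307 to 14233. The 7 tested hepatocyte markers were present in every group, and their summed signal was higher at 24 h than at 0 h. At 22 °C it was 28860 to 37710 at 0 h, 46400 to 55420 at 12 h and 51970 to 62650 at 24 h. At 30 °C it was 26150 to 42590, 38890 to 44980 and 51730 to 60150 at these times. There the 12 h range overlapped that of 0 h. The summed signal of 10 neutrophil and monocyte markers was 37.2 to 87.8 at 0 h, 233.9 to 334.1 at 22 °C and 359.6 to 588.0 at 30 °C at 12 h, and 139.1 to 357.5 and 274.7 to 471.3 at 24 h. The sum of 9 Kupffer cell markers was lower, with 188.2 to 247.7 at 0 h and 39.6 to 113.8 at 24 h at 22 °C, and 217.8 to 293.3 and 85.4 to 125.4 at 30 °C. That of 8 liver endothelial markers was 229.2 to 311.1 at 0 h and 89.66 to 184.2 at 24 h at 22 °C, and 250 to 362.9 and 125.7 to 236.1 at 30 °C. The part of these shifts in the P450 changes was not tested.

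Because close copies share sequence, the last 500 bases of each member's transcripts were compared with all other transcripts. More than 40% of the 31-base stretches were shared with another gene for 12 tested members, among them Cyp2c40 (73.8%), Cyp2c68 (68.1%), Cyp2a5 (57.9%) and Cyp2c69 (49.6%). The values of those 12 are uncertain to the extent that reads were divided between copies. The share was 0 for Cyp1a2, Cyp2c23, Cyp2c38, Cyp2c70, Cyp2f2 and Cyp2j6 and 6.38% for Cyp3a11.

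Before LPS, the P450 genes made up a similar share of the liver signal at both temperatures, 2.91% to 3.24% at 22 °C and 2.27% to 3.30% at 30 °C. Over all libraries the highest per-length means were those of Cyp2e1 (1487), which oxidises ethanol and acetaminophen, Cyp2c69 (1336), Cyp3a11 (1005), the main inducible drug-oxidising enzyme of its subfamily in mice, and Cyp2c40 (912). At 0 h at 22 °C the 2c subfamily held 49.7% ± 7.66 (SD, n = 4) of the summed per-length level of all members, 2e 14.3%, 3a 12.5%, 2a 11.4% and 1a 5.32%. On the deposited signal the highest means were those of Cyp3a11 (2931), Cyp2c69 (2635), Cyp2e1 (2100) and Cyp2a12 (1134), and Cyp2c40 had 639. The summed signal of 3a at 0 h at 22 °C (5986) was above that of 2e (3639). Of the 34 tested members 1 differed between the temperatures at 0 h, against 0.506% of all 8702 tested genes in either direction.

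That gene was Cyp3a44, which is known as a female-predominant P450 in mouse liver. Its signal at 0 h was 23.6, 26.5, 32.5 and 13.0 at 22 °C, and 2.34, 5.23, 0, 0 and 0 at 30 °C. The groups did not overlap, and the 30 °C libraries lay near the worth of 3 reads, so the size of the log2 difference (-3.69 ± 0.76 SE, adjusted p = 0.0103, limma with Benjamini-Hochberg adjustment) depends on the 1 added before the logarithm. Its mean of 6.22 over all libraries lay just above the filter, and 52.6% of its stretches were shared with other genes. The neighbouring Cyp3a41a, a P450 gene outside the naming rule, had 257.0 to 750.4 at 22 °C and 12.7 to 193.9 at 30 °C, again with no overlap (-3.15 ± 0.64, adjusted p = 0.00975). That call was lost without replicate 3 of 22 °C (adjusted p = 0.062). Cyp3a41b, also outside the naming rule, had 24.6 to 119.9 at 22 °C and 1.11 to 24.7 at 30 °C. Its groups overlapped, and it was not called (-2.61 ± 0.94, adjusted p = 0.285).

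At 4 h fewer members had changed than at the later times. Of the 34, 5 (14.7%) fell at 22 °C and 11 (32.4%) fell at 30 °C, and 0 rose at either temperature, while 13.6% and 14.6% of all tested genes fell and 15.8% and 17.8% rose. The count at 22 °C was thus near that of all genes. At 30 °C it was above the share of all genes that fell, and it was 4 without replicate 2 of 0 h. 5 genes were lower at both, a pattern not counted over all genes: Cyp1a2, Cyp2a22, Cyp2b10, Cyp2u1 and Cyp3a25. Cyp2a22 had 801, 325, 832 and 863 at 0 h and 262, 254, 210 and 222 at 4 h at 22 °C. The lowest library of 0 h still lay above all 4 of 4 h, and the log2 difference was -1.48 ± 0.31 at 22 °C (adjusted p = 0.00035) and -1.55 ± 0.30 at 30 °C (adjusted p = 8.6e-05). Cyp3a25, a steroid and drug oxidase, went from 344 to 560 at 0 h to 208 to 253 at 4 h at 22 °C and from 403 to 518 to 120 to 197 at 30 °C. The groups were apart at both temperatures, with log2 differences of -1.004 ± 0.28 (adjusted p = 0.0055) and -1.52 ± 0.26 (adjusted p = 2.1e-05). Single libraries decide much of the rest: 3 of the 5 calls at 22 °C and 4 of the 11 at 30 °C were kept whichever library was left out.

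By 12 h most of the P450 genes had fallen at both temperatures. Of the 34, 29 were lower and 2 higher at 22 °C, beside 20.6% and 20.7% of all tested genes, and 28 were lower and 1 higher at 30 °C, beside 18.9% and 19.3%. The median log2 difference of the 34 was -1.34 at 22 °C and -2.17 at 30 °C, beside -0.03 and 0.01 over all tested genes. The same 27 members were lower at 12 h at both temperatures, a pattern not counted over all genes. At 24 h 30 were lower and 2 higher at 22 °C, with a median of -2.34, beside 18% and 19% of all genes. At 30 °C 27 were lower and 2 higher, with a median of -1.92, beside 14.4% and 15.3%. Whichever library was left out, 26 of the 31 calls at 12 h and 29 of the 32 at 24 h were kept at 22 °C, and 29 of 29 and 26 of 29 at 30 °C. In bulk tissue, fewer cells of a type and less RNA per cell cannot be told apart.

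**Figure D1:**
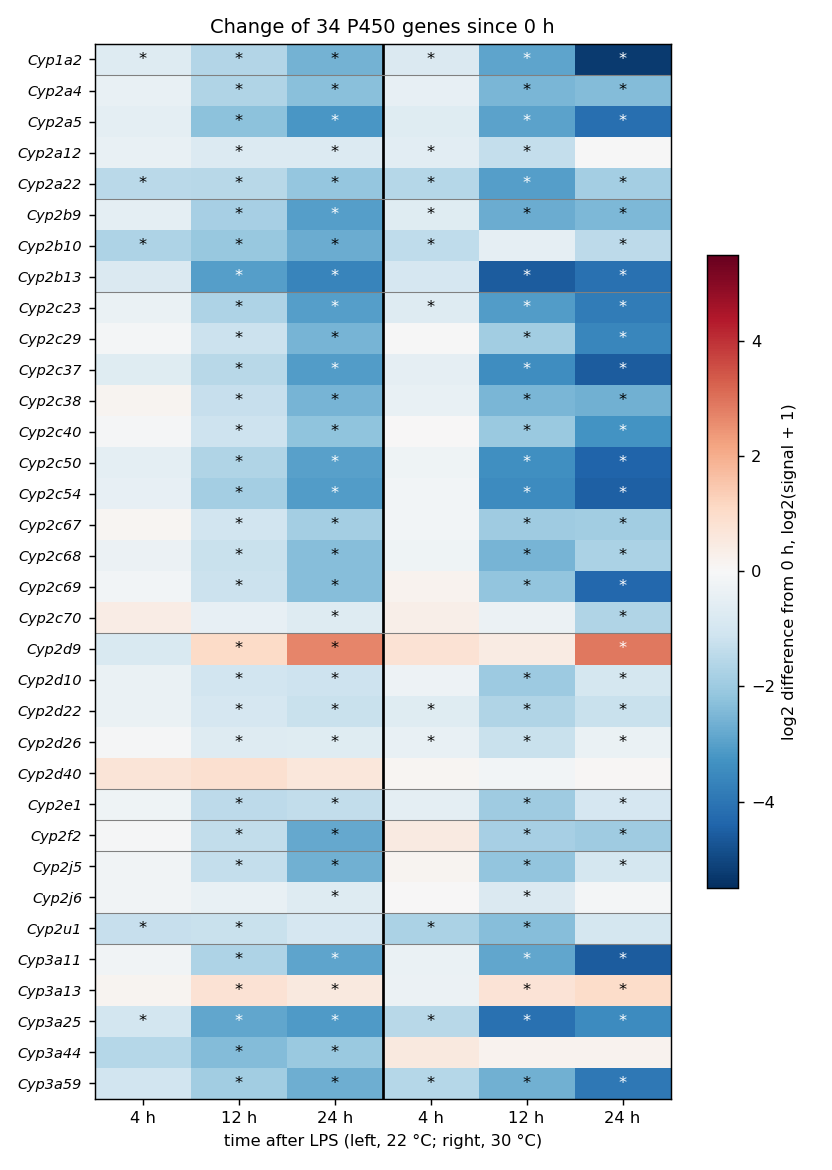
Log2 difference from 0 h of the 34 tested P450 genes at 4, 12 and 24 h, at 22 °C in the left 3 columns and at 30 °C in the right 3, on the log2(signal + 1) scale. Asterisks mark an adjusted p under 0.05 (limma, over 8702 genes); blue fills both 12 h columns, and the 24 h column of 30 °C holds both the darkest blue, Cyp1a2 at -5.25, and genes near 0.

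The share of the liver signal taken by the members fell from 3.06% ± 0.14 (SD, n = 4) at 0 h to 1.18% ± 0.24 at 12 h and 0.765% ± 0.130 at 24 h (n = 5 each) at 22 °C. At 30 °C it went from 3.01% ± 0.42 (n = 5) to 0.660% ± 0.048 (n = 4) and 0.652% ± 0.159 (n = 5). The subfamilies differed in how far they went and whether they came back. At 22 °C at 24 h the summed per-length level was 10.8% of its 0 h mean for 2b, 14.2% for 2f, 16.4% for 1a, 16.9% for 3a, 20.4% for 2c, 21.7% for 2j, 25.4% for 2a, 39.5% for 2e and 69.9% for 2d. At 30 °C the subfamilies at 12 h were closer together, from 13.0% (1a) to 38.2% (2d). By 24 h the range had widened, from 2.61% (1a), 10.5% (3a) and 12.0% (2c) to 39.0% (2a), 55.4% (2e), 58.5% (2j) and 76.3% (2d).

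**Figure D2:**
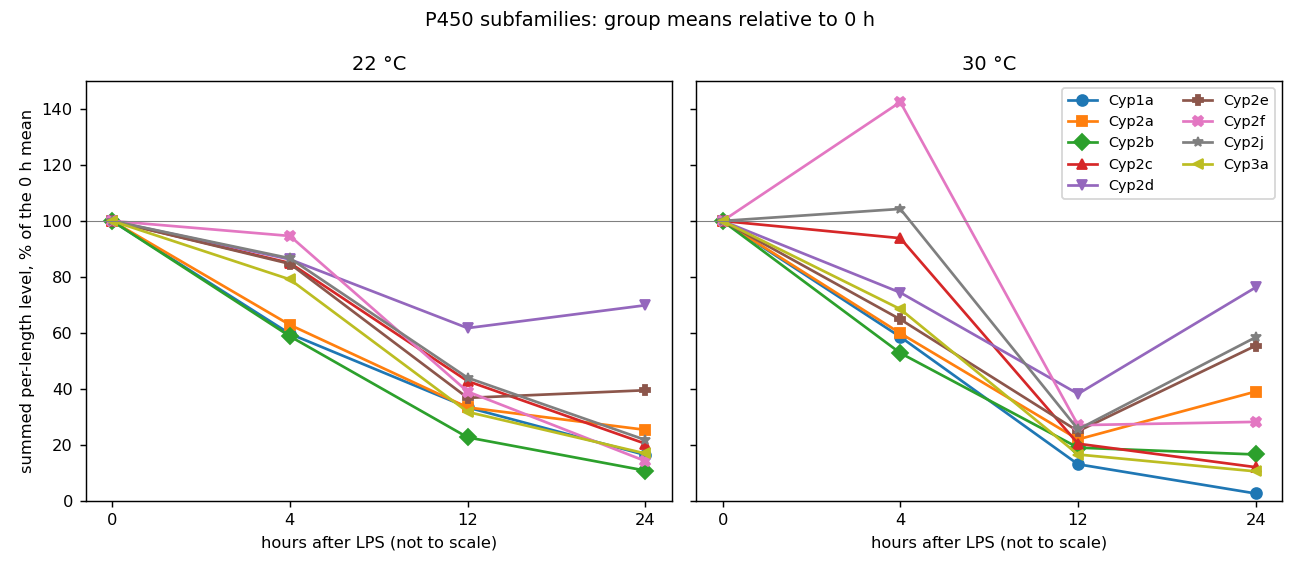
Summed per-length level of each P450 subfamily as a percentage of its own 0 h group mean, at 22 °C (left) and 30 °C (right), with time points evenly spaced. Lines join group means without error bars; at 30 °C Cyp2d, Cyp2j, Cyp2e and Cyp2a were higher at 24 h than at 12 h, and Cyp1a, Cyp2c and Cyp3a were lower.

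Family 1 was represented by Cyp1a2, which oxidises caffeine and aromatic amines and is a target of the aryl hydrocarbon receptor. Its signal at 22 °C was 1283, 1138, 922 and 1752 at 0 h, 600, 489, 362, 491 and 204 at 12 h, and 200, 274, 199, 159 and 210 at 24 h. At 30 °C it was 1079, 1548, 1223, 1080 and 1065 at 0 h, 158, 154, 168 and 148 at 12 h, and 47.4, 33.3, 30.4, 17.7 and 29.4 at 24 h. All libraries of 12 and 24 h lay below those of 0 h at the same temperature, and all 30 °C libraries below the 22 °C ones at both times. The fall by 24 h was 6.11-fold at 22 °C (log2 difference -2.59 ± 0.26, adjusted p = 9.4e-10) and 37.9-fold at 30 °C (-5.25 ± 0.25, adjusted p = 2.8e-18), the largest fall among the 34 at any time. The other family 1 genes, Cyp1a1 and Cyp1b1, stayed below the filter. Cyp1b1 is made outside hepatocytes too. At 22 °C it was at 0 in all 4 libraries of 0 h and at 1.82 to 6.15 at 12 h. In those 12 h libraries 3 reads were worth 2.05 to 3.86, and Cyp1b1 was above 3 reads in 11 of all 36 libraries.

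In subfamily 2a, Cyp2a5, which hydroxylates coumarin, fell and stayed low, and Cyp2a12, which hydroxylates testosterone, fell less and returned at 30 °C. Cyp2a5 at 30 °C had 703, 656, 668, 417 and 595 at 0 h, 55.9, 73.8, 139 and 58.4 at 12 h, and 32.2, 47.3, 17.3, 29.8 and 46.4 at 24 h. The groups did not overlap, and the log2 difference from 0 h was -2.96 ± 0.34 at 12 h and -4.16 ± 0.32 at 24 h (adjusted p = 1.2e-08 and 2.3e-12), beside -2.26 ± 0.34 and -3.22 ± 0.34 at 22 °C. Cyp2a12 at 30 °C had 1465, 1244, 1471, 1387 and 1491 at 0 h, 534, 546, 656 and 520 at 12 h, and 1404, 1170, 1296, 1173 and 1993 at 24 h. Its 24 h libraries overlapped those of 0 h and lay above all those of 12 h, with a rise of 2.495-fold between the times (1.29 ± 0.16, adjusted p = 1.5e-07). At 22 °C it had 1002, 1196, 872, 896 and 823 at 12 h and 1070, 645, 825, 1042 and 1151 at 24 h, all below its 1475 to 1638 at 0 h, and the step from 12 to 24 h was -0.03 ± 0.15.

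All 3 tested 2b genes fell at 22 °C. Cyp2b10, the classic phenobarbital-induced target of CAR, had 80.6, 50.2, 27.7 and 87.3 at 0 h, and 15.1, 12.6, 11.7, 7.32 and 17.1 at 12 h, at 22 °C. The 12 h libraries lay below all those of 0 h (-2.10 ± 0.46, adjusted p = 0.00042). At 30 °C it had 56.8, 92.9, 31.9, 60.1 and 42.8 at 0 h, and 44.7, 67.6, 28.2 and 22.2 at 12 h, which overlapped (-0.51 ± 0.46, adjusted p = 0.41). The difference between these changes did not pass the test (1.59 ± 0.66, adjusted p = 0.31). Cyp2b9 and Cyp2b13, both higher in female than in male mouse liver, fell at both temperatures, Cyp2b9 by 3.50-fold at 22 °C and 7.21-fold at 30 °C at 12 h. Cyp2b13 reached 0.837 to 8.07 at 30 °C at 12 h, at or near the worth of 3 reads, from 50.5 to 196 at 0 h.

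The 2c subfamily, whose enzymes oxidise arachidonic acid, steroids and drugs, had 11 tested members, and 10 of them fell at 12 h at both temperatures. The exception was Cyp2c70, which makes muricholic acids in mouse bile: its log2 difference at 12 h was -0.45 ± 0.25 at 22 °C and -0.33 ± 0.25 at 30 °C (adjusted p = 0.15 and 0.32). It fell by 24 h, to 102 to 214 at 22 °C and to 38.4 to 85.7 at 30 °C, from 189 to 268 and 109 to 237 at 0 h (-0.72 ± 0.25, adjusted p = 0.022, and -1.65 ± 0.24, adjusted p = 1.3e-06). The call at 22 °C was lost in 3 of 9 fits that left out 1 library. Cyp2c69, the most abundant 2c gene per length and known as female-predominant, had 4961, 6368, 7881 and 2804 at 0 h at 22 °C, 5001, 2463, 1662, 1226 and 2481 at 12 h, and 1795, 1242, 535, 579 and 1477 at 24 h. The libraries of 0 h at 22 °C were widely spread, and those of 12 h overlapped them. The 12 h call there (-1.17 ± 0.37, adjusted p = 0.011) was lost without replicate 3 of 0 h (adjusted p = 0.057). At 30 °C it had 3525, 3335, 2804, 3456 and 2908 at 0 h, 585, 749, 850 and 666 at 12 h, and 280, 137, 257, 112 and 98.7 at 24 h. Each time lay below the one before with no overlap, and the fall by 24 h was 18.1-fold (-4.30 ± 0.35, adjusted p = 7.1e-12).

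Cyp2c29, Cyp2c37, Cyp2c50 and Cyp2c54, members of the cluster on chromosome 19 that are enriched near the central vein, fell at 12 and 24 h at both temperatures. Cyp2c37 at 30 °C had 1368, 1808, 841, 1228 and 1301 at 0 h, 111, 82.3, 128 and 175 at 12 h, and 119, 53.2, 60.8, 30.3 and 35.8 at 24 h. Both later groups lay below 0 h, by 10.6-fold and 21.9-fold (-3.40 ± 0.27 and -4.56 ± 0.26, adjusted p = 4.9e-12 and 5.6e-16). At 22 °C the fold was 2.90 at 12 h and 8.37 at 24 h. Cyp2c50 and Cyp2c54 at 30 °C were lower by 17.4-fold and 17.7-fold at 24 h, and Cyp2c29 by 12.5-fold, beside 7.41-fold, 7.41-fold and 5.61-fold at 22 °C. Cyp2c68 went the other way after 12 h at 30 °C: it had 1559 to 1980 at 0 h, 287, 282, 403 and 270 at 12 h, and 660, 439, 874, 348 and 534 at 24 h. The last step overlapped by 1 library and rose by 0.82 ± 0.20 (adjusted p = 0.0024), where Cyp2c68 at 22 °C fell from 634 to 1055 at 12 h to 307 to 514 at 24 h (-1.09 ± 0.19, adjusted p = 0.0001).

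The 2d subfamily kept the most of its 0 h level at 12 and 24 h at both temperatures and held the member with the largest rise. Cyp2d9, which hydroxylates testosterone and is known as male-predominant, had 19.1, 38.2, 6.94 and 14.5 at 0 h, 36.9, 42.1, 41.8, 21.1 and 43.5 at 12 h, and 72.1, 119, 91.5, 157 and 152 at 24 h at 22 °C. At 30 °C it had 22.3, 19.4, 15.3, 4.82 and 33.4 at 0 h, 19.5, 16.7, 24.3 and 33.2 at 12 h, and 149, 104, 190, 96.2 and 120 at 24 h. At both temperatures the libraries of 24 h lay above all others of 0 and 12 h. The rise by 24 h was 6.02-fold at 22 °C (2.70 ± 0.41, adjusted p = 2.9e-06) and 6.92-fold at 30 °C (2.90 ± 0.39, adjusted p = 4.3e-07). The call at 12 h at 22 °C (1.07 ± 0.41, adjusted p = 0.038) was lost in 7 of 9 fits that left out 1 library. Of its 31-base stretches 45.4% were shared with other genes. Cyp2d10, Cyp2d22 and Cyp2d26 fell at 12 and 24 h at both temperatures, by at most 4.1-fold (Cyp2d10, 30 °C, 12 h). The Cyp2d26 call at 30 °C at 24 h (-0.36, adjusted p = 0.043) was lost in 6 of 10 fits that left out 1 library. Cyp2d40, at 3.03 to 31.5 throughout, passed no test.

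Cyp2e1 had 3246, 3966, 3624 and 3718 at 0 h, 1272, 1640, 1451, 1156 and 1239 at 12 h, and 1289, 1808, 1465, 1067 and 1575 at 24 h at 22 °C. At 30 °C it had 3398, 3848, 1666, 2893 and 3258 at 0 h, 698, 846, 810 and 642 at 12 h, and 1678, 988, 2231, 817 and 2733 at 24 h. The fall at 12 h, with no overlap, was 2.69-fold at 22 °C (-1.44 ± 0.25, adjusted p = 2.4e-05) and 4.02-fold at 30 °C (-1.96 ± 0.25, adjusted p = 1.1e-07). From 12 to 24 h it rose by 1.03 ± 0.25 at 30 °C (adjusted p = 0.0031), with widely scattered libraries, and its difference at 22 °C was 0.08 ± 0.24 (adjusted p = 0.89). Whether these steps differ was not tested. Cyp2f2, which activates naphthalene and is the P450 here known from periportal hepatocytes, fell by 7.03-fold at 22 °C and 3.51-fold at 30 °C at 24 h (-2.80 ± 0.30 and -1.95 ± 0.28, adjusted p = 2.5e-09 and 1.4e-06). The difference between those changes was not past the threshold (0.85 ± 0.41, adjusted p = 0.21), and passed it without replicate 4 of 30 °C at 24 h (adjusted p = 0.009).

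Cyp2j5, an epoxygenase of arachidonic acid, had 304, 315, 299 and 347 at 0 h, 142, 173, 149, 90.0 and 99.2 at 12 h, and 68.8, 80.0, 31.8, 32.2 and 56.9 at 24 h at 22 °C, each time below the one before. At 30 °C it had 326, 248, 121, 309 and 310 at 0 h, 62.9, 50.04, 61.2 and 46.9 at 12 h, and 153, 121, 255, 44.1 and 158 at 24 h. Of the 5 libraries of 24 h, 4 lay above all those of 12 h, and the step was a rise of 2.65-fold (1.198 ± 0.33, adjusted p = 0.0089), where 22 °C fell by 2.42-fold (-1.32 ± 0.31, adjusted p = 0.0046). Cyp2j6 had 49.3 to 67.4 at 0 h and 26.3 to 43.1 at 24 h at 22 °C (-0.73 ± 0.20, adjusted p = 0.0051), and 48.9 to 69.0 and 40.2 to 69.4 at 30 °C (-0.12 ± 0.19, adjusted p = 0.67). Cyp2u1, which hydroxylates long-chain fatty acids, was near the floor at 12 h, with 3.58 to 7.33 at 22 °C and 2.96 to 6.89 at 30 °C, from 11.5 to 17.8 and 19.4 to 46.8 at 0 h.

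In subfamily 3a, Cyp3a11, the chief target of PXR in this subfamily, fell at 12 and 24 h at both temperatures. At 4 h it passed the test at neither, with 3968 to 4796 at 22 °C and 3292 to 5936 at 30 °C (-0.19 ± 0.32 and -0.39 ± 0.30, adjusted p = 0.69 and 0.35). It had 6156, 4645, 4331 and 5895 at 0 h, 1989, 1990, 1504, 1733 and 968 at 12 h, and 772, 1241, 546, 567 and 543 at 24 h at 22 °C. At 30 °C it had 7469, 6674, 3430, 6305 and 7050 at 0 h, 868, 707, 892 and 887 at 12 h, and 340, 264, 561, 112 and 177 at 24 h. No library of 12 or 24 h reached the 0 h range of its temperature. The fall by 24 h was 7.16-fold at 22 °C (-2.90 ± 0.30, adjusted p = 1.6e-09) and 21.3-fold at 30 °C (-4.57 ± 0.28, adjusted p = 7.5e-15). Cyp3a25 fell by 7.02-fold at 22 °C and 17.4-fold at 30 °C by 12 h (-2.85 ± 0.26 and -4.09 ± 0.26) and its step from then to 24 h did not pass the test (-0.29 ± 0.25 and 0.65 ± 0.26, adjusted p = 0.53 and 0.076).

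Cyp3a13 rose while its subfamily fell. It had 228, 230, 142 and 184 at 0 h, 361, 405, 316, 249 and 355 at 12 h, and 261, 261, 228, 298 and 362 at 24 h at 22 °C. At 30 °C it had 273, 308, 145, 202 and 223 at 0 h, 444, 453, 338 and 277 at 12 h, and 434, 344, 494, 360 and 663 at 24 h. The 12 h libraries at 22 °C and the 24 h libraries at 30 °C lay above all those of 0 h. The log2 difference was 0.79 ± 0.20 and 0.73 ± 0.20 at 12 h (adjusted p = 0.0021 and 0.0043) and 0.53 ± 0.20 and 1.00 ± 0.19 at 24 h (adjusted p = 0.039 and 0.00012) at 22 and 30 °C. The 24 h call at 22 °C was lost in 4 of 9 fits that left out 1 library. Of its stretches, 0.426% were shared with another gene.

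**Figure D3:**
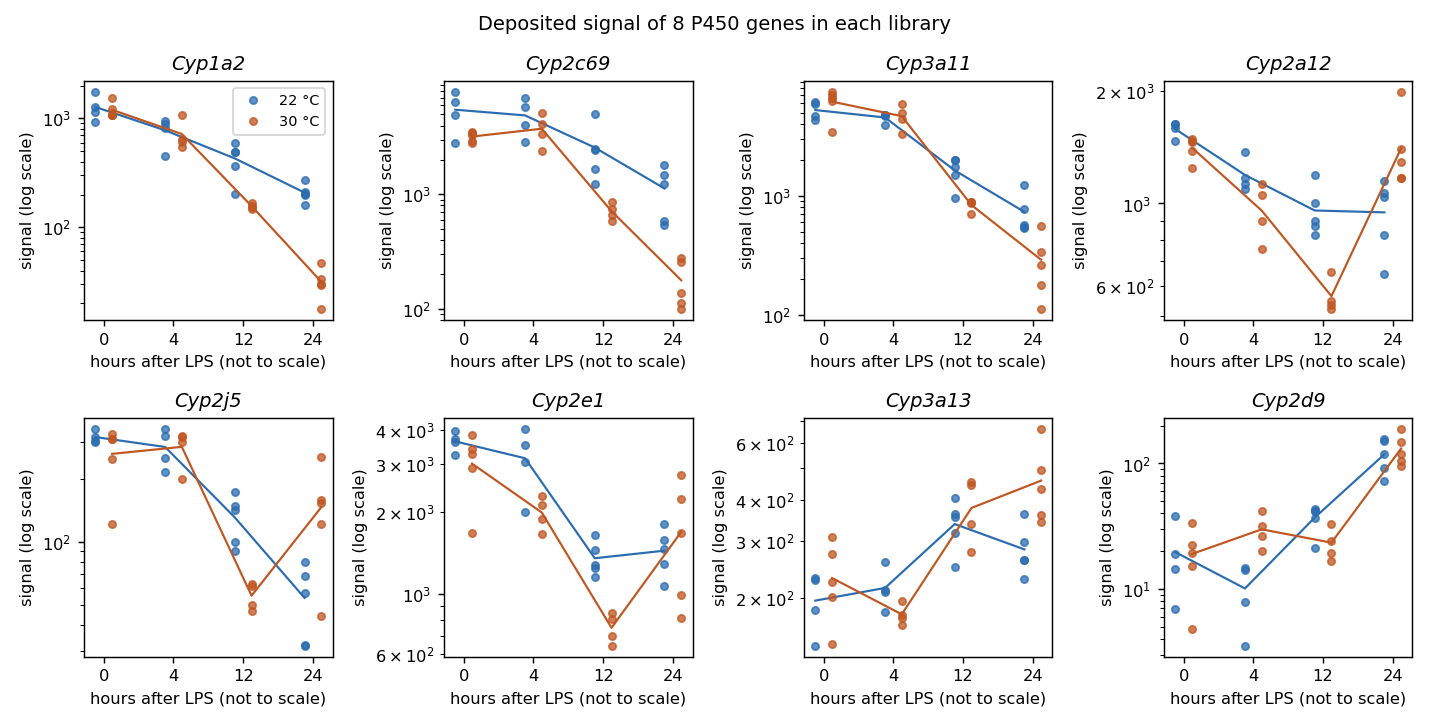
Deposited signal (log axis) of 8 P450 genes in each library by hours after LPS, time points evenly spaced, with lines through the group means; blue is 22 °C and orange 30 °C. At 24 h the 30 °C libraries of Cyp1a2 (17.7 to 47.4) lie below all those of 22 °C (159 to 274), those of Cyp2a12 (1170 to 1993) lie above (645 to 1151), and Cyp2d9 and Cyp3a13 are the members that rose.

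The direct comparison of 30 with 22 °C at each time asked which members depended on ambient temperature. At 4 h 0 of the 34 were called by limma, with 2 at an unadjusted p under 0.05, and 0.207% of all genes were called. At 12 h 16 members were lower at 30 °C and 0 higher, 47.1% of the tested members beside 3.29% of all genes that were lower and 0.977% that were higher, and the median log2 difference was -0.96 beside -0.01 over all genes. At 24 h the members split: 10 were lower and 7 higher at 30 °C, 29.4% and 20.6% of the tested members, beside 8.71% and 9.93% of all genes. The count at 12 h rests partly on single libraries, since it was 10 without replicate 2 of 22 °C or without replicate 2 of 30 °C.

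Among those lower at 30 °C at 12 h were Cyp2c50 (4.12-fold), Cyp2c54 (4.403-fold), Cyp2c69 (3.60-fold), Cyp2c37 (3.15-fold) and Cyp1a2 (2.74-fold), with adjusted p from 0.00026 to 0.0050. 10 of the 16 calls were kept whichever library was left out. For Cyp2e1 (adjusted p = 0.049) the call was lost in 8 of 9 such fits, for Cyp2j5 in 7 and for Cyp2a5 in 6. At 24 h Cyp1a2 was 6.59-fold lower at 30 °C (-2.73 ± 0.25, adjusted p = 1.9e-09), Cyp2c69 6.36-fold (-2.63 ± 0.35, adjusted p = 1.5e-06) and Cyp3a11 2.52-fold (-1.46 ± 0.28, adjusted p = 0.00033). The Cyp1a2 and Cyp2c69 groups did not overlap, and those of Cyp3a11 overlapped by 1 library of 30 °C, replicate 3. All 10 lower calls at 24 h were kept whichever library was left out.

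Higher at 30 °C at 24 h were Cyp2a12 (1.49-fold, 0.57 ± 0.15, adjusted p = 0.0053), Cyp2j5 (2.71-fold, 1.32 ± 0.31, adjusted p = 0.0027), Cyp2d26 (1.41-fold), Cyp3a13 (1.63-fold), Cyp2j6, Cyp2c68 and Cyp2b10. The first 3 calls were kept whichever library was left out, but those of Cyp2a12 and Cyp2j5 were lost when only the groups of the contrast were fitted (adjusted p = 0.066 and 0.051). The Cyp3a13 call was lost without replicate 5 of 30 °C (adjusted p = 0.058), and those of Cyp2j6, Cyp2c68 and Cyp2b10 in 4, 7 and 7 of 10 such fits. 7 members were lower at 30 °C at both 12 and 24 h (Cyp1a2, Cyp2a5, Cyp2c37, Cyp2c40, Cyp2c50, Cyp2c54 and Cyp2c69). 3 were lower at 12 h and higher at 24 h (Cyp2a12, Cyp2c68 and Cyp2j5). Neither pattern was counted over all genes.

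The step from 12 to 24 h was taken within each temperature from the same libraries. Its difference between the temperatures was not tested for any member. At 22 °C 13 members fell and 1, Cyp2d9, rose, beside 6.6% and 4.02% of all genes. At 30 °C 10 fell and 10 rose, beside 9.52% and 11.6%. Those that rose at 30 °C were Cyp2a12, Cyp2a22, Cyp2c68, Cyp2d9, Cyp2d10, Cyp2d26, Cyp2e1, Cyp2j5, Cyp2j6 and Cyp2u1. Those that fell were Cyp1a2, Cyp2a5, Cyp2c23, Cyp2c29, Cyp2c37, Cyp2c40, Cyp2c50, Cyp2c69, Cyp2c70 and Cyp3a11. 8 of the rises and 7 of the falls were kept whichever library was left out.

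**Figure D4:**
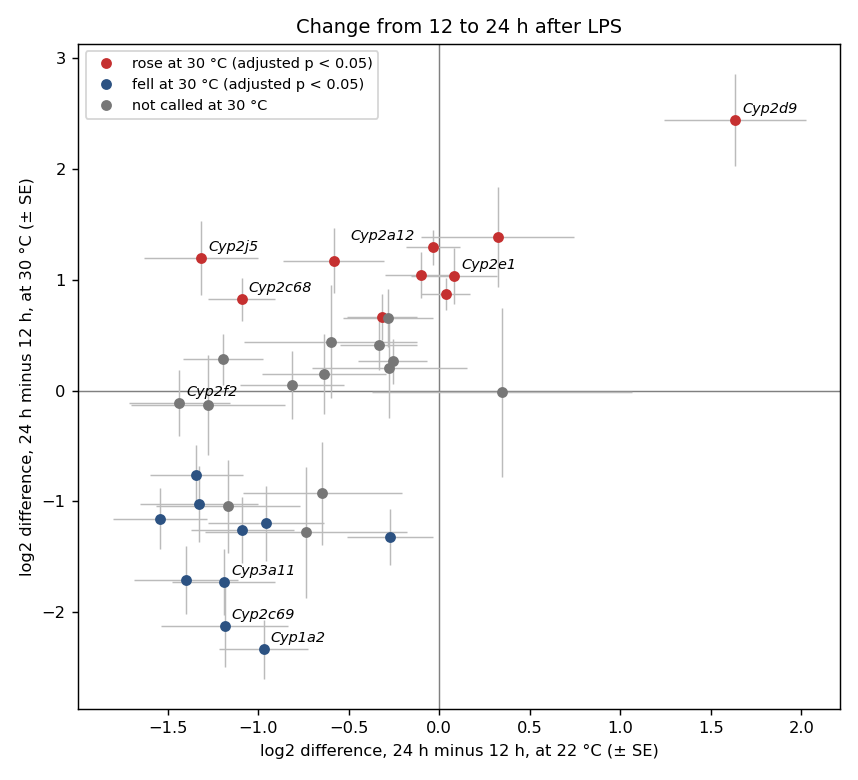
Log2 difference from 12 to 24 h of the 34 tested members at 22 °C (horizontal) and 30 °C (vertical), on the log2(signal + 1) scale with bars of 1 SE; colour gives the call at 30 °C. Cyp2j5 and Cyp2c68 lie to the left of 0 and above it, and Cyp1a2, Cyp2c69 and Cyp3a11 lie low on both axes.

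Whether the change since 0 h itself differed between the temperatures was tested as an interaction, the change at 30 °C minus that at 22 °C. At 4 h limma called 0 members, with 1 at an unadjusted p under 0.05, and 0.0115% of all genes. At 12 h it called Cyp2c37 (-1.88 ± 0.39) and Cyp2c68 (-1.34 ± 0.28), both with adjusted p = 0.021, beside 0.276% of all genes, and neither call was kept in every fit that left out 1 library. At 24 h 6 members were called, 17.6% of the 34 beside 8.95% of all genes. Cyp1a2 (-2.66 ± 0.36, adjusted p = 1.1e-05), Cyp2c69 (-1.94 ± 0.51, adjusted p = 0.013), Cyp3a11 (-1.66 ± 0.42, adjusted p = 0.0090) and Cyp2c37 (-1.49 ± 0.38, adjusted p = 0.0098) had fallen further at 30 °C. Cyp2j5 (1.67 ± 0.46, adjusted p = 0.018) and Cyp2a12 (0.74 ± 0.21, adjusted p = 0.024) had fallen less. The Cyp2a12 call was lost without replicate 2 of 22 °C or replicate 5 of 30 °C at 24 h (adjusted p = 0.061 and 0.057), and both positive calls were lost when only the 4 groups of the contrast were fitted (0.061 for Cyp2a12 and 0.067 for Cyp2j5).

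The promoters of these 6 members are shown because they form the opposed sets at 24 h, Cyp1a2, Cyp2c37, Cyp2c69 and Cyp3a11 lower at 30 °C and Cyp2a12 and Cyp2j5 higher. Each runs from 250 bases before to 50 after the RefSeq start (GRCm38.p6), 5′ to 3′ on the gene's strand. Capitals mark matches to CAAAGTNCA, a form of the direct repeat bound by HNF4α, searched on both strands.
Cyp1a2, chr9:57683606-57683905, minus strand: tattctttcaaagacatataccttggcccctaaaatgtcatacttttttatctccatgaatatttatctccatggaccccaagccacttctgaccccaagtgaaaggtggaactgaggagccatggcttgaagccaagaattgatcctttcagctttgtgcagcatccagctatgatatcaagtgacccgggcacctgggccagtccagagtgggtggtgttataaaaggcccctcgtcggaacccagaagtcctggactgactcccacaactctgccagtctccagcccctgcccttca
Cyp2c37, chr19:39992174-39992473, plus strand: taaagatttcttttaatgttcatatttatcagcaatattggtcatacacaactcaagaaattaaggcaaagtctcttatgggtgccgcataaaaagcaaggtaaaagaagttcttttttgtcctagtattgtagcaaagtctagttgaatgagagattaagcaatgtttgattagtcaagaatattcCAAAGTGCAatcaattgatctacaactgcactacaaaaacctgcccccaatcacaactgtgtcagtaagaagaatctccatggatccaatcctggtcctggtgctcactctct
Cyp2c69, chr19:39886720-39887019, minus strand: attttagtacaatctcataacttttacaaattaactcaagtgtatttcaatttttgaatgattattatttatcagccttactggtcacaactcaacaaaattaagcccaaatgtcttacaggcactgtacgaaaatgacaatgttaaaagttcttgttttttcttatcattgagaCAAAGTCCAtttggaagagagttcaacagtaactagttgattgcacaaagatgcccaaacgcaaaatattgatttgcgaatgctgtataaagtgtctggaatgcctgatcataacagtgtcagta
Cyp3a11, chr5:145879805-145880104, minus strand: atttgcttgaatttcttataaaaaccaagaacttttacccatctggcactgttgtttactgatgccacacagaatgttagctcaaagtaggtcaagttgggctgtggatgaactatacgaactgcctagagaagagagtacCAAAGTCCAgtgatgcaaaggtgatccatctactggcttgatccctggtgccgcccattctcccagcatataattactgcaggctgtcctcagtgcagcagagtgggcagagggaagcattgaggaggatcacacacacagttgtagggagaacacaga
Cyp2a12, chr7:27028840-27029139, plus strand: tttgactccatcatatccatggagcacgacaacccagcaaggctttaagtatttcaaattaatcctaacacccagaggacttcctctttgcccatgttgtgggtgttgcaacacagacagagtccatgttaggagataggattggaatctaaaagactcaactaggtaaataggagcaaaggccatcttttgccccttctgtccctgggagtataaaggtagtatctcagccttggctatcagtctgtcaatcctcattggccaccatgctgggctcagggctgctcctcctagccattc
Cyp2j5, chr4:96664070-96664369, minus strand: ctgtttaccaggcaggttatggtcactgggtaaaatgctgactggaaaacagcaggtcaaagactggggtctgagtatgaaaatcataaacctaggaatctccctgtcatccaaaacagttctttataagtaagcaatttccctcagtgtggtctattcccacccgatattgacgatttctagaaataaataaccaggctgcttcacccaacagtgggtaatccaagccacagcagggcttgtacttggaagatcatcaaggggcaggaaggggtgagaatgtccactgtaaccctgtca
A match was found in Cyp2c37, Cyp2c69 and Cyp3a11 and not in the other 3. Matches did not follow direction among the other members called between the temperatures at 24 h. Cyp2c68 and Cyp2d26, higher at 30 °C, held a match, as did Cyp2c40, Cyp2c50 and Cyp2c70, which were lower. Cyp2a5 and Cyp2c29, lower at 30 °C, held no match, and neither did Cyp2b10, Cyp2j6 and Cyp3a13, which were higher. No window was found for Cyp2c54. RefSeq promoters were found for 30 of the 34 tested members, and 10 of their 31 windows held a match (32.3%), beside 1.41% of 32851 windows of all genes; 7 of those 10 belong to 2c genes, close copies that are not independent of each other. TATAAA was in 61.3% of the tested members' windows beside 13.6% of all, and the C/EBP core TTGCNNAA in 35.5% beside 10.8%. The D-box TTATGNAA was in 9.68% beside 3.38%, the aryl hydrocarbon receptor core GCGTG in 6.45% beside 32.4%, and a part of the HNF1 site in 0 beside 0.399%. These are matches of letters in a window and not binding sites.

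The partners that P450 enzymes need moved in different directions. Por, the reductase, had 25.6 to 37.9 at 0 h and 83.8 to 103 at 24 h at 22 °C, and 33.7 to 52.1 and 48.7 to 109 at 30 °C. It rose by 1.52 ± 0.23 and 1.01 ± 0.21 at 24 h (adjusted p = 1.6e-06 and 0.00039). Of the 6 genes of the electron-donor list 1 rose, Por, and 4 fell at 24 h at each temperature: Cyb5a, Cyb5b, Cyb5r3 and Pgrmc1. Among all tested genes, the share called lower at 24 h was 18% at 22 °C, with 19% called higher. For 30 °C these shares were 14.4% (lower) and 15.3% (higher). Alas1, the first and rate-limiting enzyme of heme synthesis, went from 89.9 to 169 at 0 h to 721 to 930 at 24 h at 22 °C, and from 52.8 to 134 to 697 to 1051 at 30 °C. It rose by 2.88 ± 0.20 and 3.37 ± 0.19 (adjusted p = 1.1e-13 and 2.5e-16). Hmox1, which degrades heme, rose as well (2.02 and 1.01 at 24 h), though the call at 30 °C was lost in 4 of 10 fits that left out 1 library. At 24 h at 22 °C, 5 of the 10 tested heme genes fell, beside 18% of all genes, and 2 rose, beside 19%. At 30 °C these counts were 4 lower, beside 14.4%, and 2 higher, beside 15.3%. Alad, the next enzyme after Alas1, was among those that fell (-1.98 and -1.78).

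Among the receptors that drive P450 genes, the mRNAs of PXR and CAR fell at 4 h, that of HNF4α rose, and that of the aryl hydrocarbon receptor (Ahr) passed no test at that time (0.45 and 0.14, adjusted p = 0.39 and 0.79). Nr1i2 (PXR) had 53.0 to 86.4 at 0 h, 6.94 to 15.5 at 4 h and 33.98 to 103 at 24 h at 22 °C, and 61.9 to 93.8, 8.37 to 13.3 and 40.9 to 80.9 at 30 °C. It fell at 4 h (-2.47 ± 0.29 and -2.69 ± 0.27, adjusted p = 2e-08 and 8.1e-10), and at 24 h its difference from 0 h was -0.11 ± 0.27 and -0.30 ± 0.26 (adjusted p = 0.80 and 0.42). Nr1i3 (CAR) fell at 4 h (-2.55 ± 0.60 and -2.61 ± 0.57, adjusted p = 0.0012 and 0.00045). It had 28.5, 38.8, 66.0 and 53.0 at 0 h and 3.28, 8.51, 2.34, 13.8 and 23.6 at 24 h at 22 °C, and 57.2, 38.6, 53.0, 34.5 and 59.9 at 0 h and 56.9, 51.9, 77.6, 40.1 and 56.2 at 24 h at 30 °C. At 24 h it was higher at 30 than at 22 °C in every library (2.70 ± 0.54, adjusted p = 0.00043), and the interaction was 2.60 ± 0.78 (adjusted p = 0.032), lost in 6 of 19 fits that left out 1 library. Of genes known as targets of CAR or PXR, Cyp2b10 was higher at 30 °C at 24 h, in a call lost in 7 of 10 such fits, and Cyp2c29, Cyp2c37, Cyp2a5 and Cyp3a11 were lower. Hnf4a rose at 4 h (0.72 and 0.60) and at 24 h at 30 °C (0.57), and Cebpb rose at every time. Stat5b, which carries the growth hormone signal behind sex-biased P450 genes, fell at every time at both temperatures (-1.10 to -1.66), with the 4 h call at 22 °C lost in 6 of 8 such fits. In all, 1 of 19 tested regulators rose and 6 fell at 24 h at 22 °C, beside 19% and 18% of all genes. At 30 °C the numbers were 4 and 4, beside 15.3% and 14.4%, so the count there was near that of all genes.

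Grouped by their known place in the lobule, the 9 listed P450 genes of pericentral hepatocytes all fell at 12 and 24 h at both temperatures. Of all 34 tested P450 genes, 29 and 30 fell at these times at 22 °C and 28 and 27 at 30 °C. Of all genes 20.6% and 18% fell at 22 °C and 18.9% and 14.4% at 30 °C. The periportal Cyp2f2 fell in each of these comparisons as well, so the fall is not particular to these 9. The median of the 9 was -2.97 at 22 °C and -4.42 at 30 °C at 24 h. At that time 7 of the 9 were lower at 30 than at 22 °C, beside 10 of all 34 and 8.71% of all genes. Of 10 tested pericentral genes that are not P450s, 9 fell at 22 °C and 5 at 30 °C at 24 h, beside 18% and 14.4% of all genes, and 2 were lower and 2 higher at 30 than at 22 °C, beside 8.71% and 9.93%. Rgn, a calcium-binding hydrolase, was one of the lower ones, with 139 to 180 at 22 °C and 2.88 to 120 at 30 °C (-2.09 ± 0.45, adjusted p = 0.0011). Glul, glutamine synthetase, was the other, with 28.1 to 107 and 13.3 to 21.1 (-1.78 ± 0.29, adjusted p = 4.4e-05). Oat and Aldh3a2 were higher at 30 °C (0.74 and 2.42), and the Oat call was lost in 4 of 10 fits that left out 1 library. Of 12 periportal genes, 7 were higher at 30 °C and 0 lower, beside the same shares of all genes, with Cps1, which starts the urea cycle, at 388 to 925 at 22 °C and 1938 to 2806 at 30 °C (2.18).

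Of the 6 tested P450 genes known to be higher in female than in male mouse liver, all fell at 12 and 24 h at 22 °C and 5 fell at both times at 30 °C, where Cyp3a44 was already near 0 at 0 h. At 22 °C 20.6% and 18% of all genes fell at these times, and 29 and 30 of all 34 tested P450 genes. At 30 °C 18.9% and 14.4% of all genes fell, and 28 and 27 of the 34. The fall is thus not particular to these 6. The male-predominant Cyp2d9 rose at 24 h at both temperatures. Neither list was chosen independently of these data.

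The other 24 members had a mean signal under 5. 4 were at 0 in all 36 libraries (Cyp2b23, Cyp2j7, Cyp2j12 and Cyp2w1), and the highest were Cyp2c55 (mean 3.98), Cyp2r1 (3.90) and Cyp2j9 (3.46), just under the filter, with Cyp3a44 (6.22) and Cyp2u1 (11.8) the first above it. Cyp2c55 had 0 to 20.7 at 0 h and was at 0 in all 5 libraries of 30 °C at 24 h. Cyp2j9 had 1.43 to 21.2 at 0 h and was at 0 in all 4 libraries of 30 °C at 12 h. Cyp2r1, which makes the circulating form of vitamin D, had 1.26 to 9.94 at 0 h and 0.675 to 7.26 at 24 h. These 24 genes were not tested for a difference.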

How the data were processed

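Liver RNA of 36 samples was sequenced from 10 ng of total RNA with a modified CEL-Seq2 protocol, which reads transcripts from the 3′ end, per the labels' protocols. Trimmomatic, kallisto and sleuth are named in the submitters' processing notes; the sources used here do not give the genome build or transcript index. The authors deposited a normalised signal per gene and library, scaled reads per base, and a per-length value named TPM by the authors; the sources used here do not say how the signal was scaled. Whole reads could not be recovered from it, and depth was estimated from the smallest steps of the values. The signal was tested as log2(signal + 1) with limma 3.58.1 (R 4.3.3), in 1 fit over all 8 groups with 15 contrasts, for the 8702 genes whose mean reached 5. P-values were adjusted by Benjamini-Hochberg over those genes, with a threshold of 0.05, and fold changes are ratios of group means. Log2 differences understate the change of low genes. Tables were handled in Python 3.11.15 with pandas 2.3.3, and the fit was tested on simulated data. Named genes were the best known or highest member of each subfamily, up to 5 rises and 5 falls per contrast whose higher group averaged 20 or more, and every member called in an interaction; some others were named after their values were seen. The members and lists were chosen with earlier results of these data known.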

Additional observations from a re-analysis of the deposited data

Results flagged for a closer look

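In 12 of 224 groups of the 28 named members, 1 library lay far from the rest of its group; about 1 group in 20 would do so by chance. At 30 °C at 24 h replicate 5 was high for Cyp2a12 (1993, next 1404). At 22 °C at 0 h replicate 2 was low for Cyp2a22 (325, next 801) and replicate 4 was low for Cyp2c23 (217, next 278). At 30 °C at 4 h replicate 1 was high for Cyp2b10 (43.3, next 17.1) and replicate 3 was low for Cyp2c29 (703, next 1054). At 22 °C at 24 h replicate 2 was high for Cyp2c37 (200.1, next 129.8). At 30 °C at 12 h replicate 3 was high for Cyp2c68 (403, next 287), replicate 2 was low for Cyp3a11 (707, next 868) and replicate 4 was high for Cyp3a44 (1.75, next 0.987), a value near that of 1 read. At 30 °C at 0 h replicate 3, the shallowest library, was low for Cyp2f2 (108, next 181) and for Cyp3a11 (3430, next 6305). At 22 °C at 4 h replicate 3 was low for Cyp3a11 (3968, next 4674).

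The change since 0 h differed between the temperatures, by the interaction test in limma, for 2 members at 12 h and 6 at 24 h. At 12 h the difference on the log2 scale was -1.88 for Cyp2c37 and -1.34 for Cyp2c68. At 24 h it was 0.74 for Cyp2a12, 1.67 for Cyp2j5, -2.66 for Cyp1a2, -1.49 for Cyp2c37, -1.94 for Cyp2c69 and -1.66 for Cyp3a11.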

How the results depend on the processing

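No result that passed the test reversed its direction under any alternative; some that did not pass it changed sign. With a minimum mean of 20 the 0 h count of members that differed between the temperatures went from 1 to 0, since Cyp3a44 was not tested. The count at 4 h at 22 °C was 3 without a filter and 8 after upper-quartile rescaling, and at 30 °C 7 with array weights. The interaction count at 12 h was 0 without a filter, 1 after upper-quartile rescaling, 4 with only the groups of the contrast and 4 with the replicate block. Leaving out 1 library gave counts of 1 to 1, 0 to 0, 10 to 20 and 13 to 18 for 30 against 22 °C at 0, 4, 12 and 24 h. It gave 3 to 6, 27 to 30 and 30 to 32 at 22 °C and 4 to 11, 29 to 29 and 27 to 29 at 30 °C for 4, 12 and 24 h against 0 h. It gave 11 to 16 at 22 °C and 16 to 21 at 30 °C from 12 to 24 h, and 0 to 0, 0 to 6 and 5 to 10 for the interactions at 4, 12 and 24 h. The count at 4 h was 3 at 22 °C without 0 h replicate 1 or 4 h replicate 4, and at 30 °C 4 without 0 h replicate 2 and 5, 7 and 6 without 4 h replicates 2, 3 and 4. The interaction count at 12 h was 0 without 22 °C 12 h replicate 2 or 30 °C 12 h replicate 1 or 2, 1 without 22 °C 0 h replicate 4 or 30 °C 12 h replicate 4, and 6 without 22 °C 12 h replicate 5. The interaction count at 24 h was 10 without 30 °C 24 h replicate 3. The cause of these changes was not tested, apart from the genes and samples each alternative removes. Of 252 results for named genes, the per-length values kept the call of 248, a pseudocount of 0.5 of 250 and of 4 of 248.

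Replicate numbers, taken from the sample titles, showed no sign of pairing the samples. Of 118 pairs with the same number in different groups, 2 had a residual correlation above 0.1. Of 36 libraries, 9 correlated best with their own number. For replicates 3 and 4 of 30 °C at 12 h the sample descriptions carry other numbers, and those were not tried. The fit with the replicate block kept 246 of the 252 calls. Upper-quartile rescaling moved the median of all genes at 4 h from -0.10 to -0.20 at 22 °C and from -0.04 to -0.17 at 30 °C. Depth limits members near the worth of 3 reads (Cyp2b13, Cyp2u1, Cyp3a44), and shared sequence limits the 2a, 2c, 2d and 3a copies.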
